A study of Bos taurus with 12 samples.

Results

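Histone and DNA modifiers and chromatin remodellers were read in bovine oocytes from adult and prepubertal donors, before and after in vitro maturation. The genes were taken from the array annotation by family name. They comprise the KDM, KMT, SETD and NSD methylation genes, the HDAC, SIRT and KAT acetylation genes, the SMARC, CHD and ARID remodelling genes, the DNMT genes, Polycomb components, CBX, BRD and ZMYND readers and the PRMT genes. Of 9155 genes with a probe set of their own, 80 belonged to these families, and each was represented by its probe set with the highest mean signal over the 12 arrays. A filter on dim probe sets kept 73 of the 80 genes. The 7 genes below it were ARID5A, CHD9, HDAC11, SETD7, SIRT7, SMARCD3 and ZMYND12, which were not tested.

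The RNA on an array came from 50 pooled, denuded oocytes of Japanese Black cattle. There were 4 groups of 3 pools, which the labels call biological replicates. Germinal vesicle (GV) oocytes are immature oocytes arrested in meiotic prophase and were collected straight from follicles of 2 to 8 mm. Metaphase II (MII) oocytes were chosen for an extruded first polar body after 20 to 22 h of in vitro maturation in medium with serum. Adult ovaries came from an abattoir. Prepubertal ovaries were removed from heifers of 9 to 12 months on farms, so donor age and the way of collection went together and cannot be told apart. The labels do not say whether pools of a group came from separate animals or days, so the p-values measure the spread between these pools. In pooled material, fewer cells carrying a transcript and less transcript per cell cannot be told apart, and a change in total RNA per oocyte was not measured.

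As background, an oocyte near the end of its growth stops transcribing, and its maturation to MII runs on stored messenger RNA. During this time chromatin condenses, many acetyl groups are removed from histones, and the stored transcripts of chromatin regulators supply the enzymes that remodel the parental genomes after fertilisation. The families form writers, erasers and readers of marks, remodelling motors that move nucleosomes with ATP, and enzymes that methylate DNA. A stored transcript can be degraded, masked or given a longer poly(A) tail during maturation, so an array signal is not a rate of transcription.

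Of the 12 arrays, 3 lacked the profile of an oocyte: replicate 1 of the GV prepubertal, MII prepubertal and GV adult groups. BMP15, an oocyte growth factor, read 7.08, 6.55 and 6.47 on these arrays (log2 signal, the scale of every value here) and 14.21 to 15.10 on the other 9. The median of 9 measured oocyte markers stood between -0.36 and 0.76 above the array median on the 3 arrays and between 6.06 and 8.70 on the 9. Markers of cumulus and granulosa cells (14 of 15 listed were measured) had a median 2.66 and 4.95 above the array median on the prepubertal replicate 1 arrays. On GV adult replicate 1 that median was only 0.06. Markers of theca and stroma had a median 1.78 and 2.77 above the array median on the prepubertal replicate 1 arrays. On GV adult replicate 1 the theca and stroma median was 0.41, and on the 9 arrays it lay between -2.97 and -0.23. The highest Spearman correlation of GV adult replicate 1 with any other array was 0.138, against 0.553 or more for each of the rest. Its array median, 8.3, was the highest. Every comparison is therefore given over 12 arrays and over the 9 arrays with an oocyte profile, which leave 2 pools in each of these groups and 3 in the MII adult group. Among those 9, the cumulus and granulosa list lay between -1.80 and -0.23 relative to the array median in the 4 GV pools and between -1.20 and 1.06 in the 5 MII pools. PTX3, a matrix gene of the expanding cumulus, read 1.92 to 4.46 at GV and 5.40 to 8.74 at MII. TNFAIP6, of the same list, went the other way, with 4.56 to 7.41 at GV and 0.29 to 4.28 at MII. The other measured cumulus and granulosa genes overlapped between the stages. The part of such RNA in the maturation values was not tested.

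A small number of regulators separated the stages. Between the 6 GV and the 6 MII arrays, no array of 1 stage overlapped with the other for BRD2, NSD3 and SMARCA4, which were higher at MII (3 of 73 genes, 4.11%, against 0.451% of all 14409 probe sets tested), nor for PRMT2, which was lower (1 gene, 1.37% against 0.5%). Over the 9 arrays, DNMT1, PCGF6 and SMARCA5 joined the 3 higher genes (8.22% against 3.82%), while BRD8, PRMT2, PRMT5 and SMARCA2 were lower without overlap (5.48% against 3.53%).

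**Figure D1:**
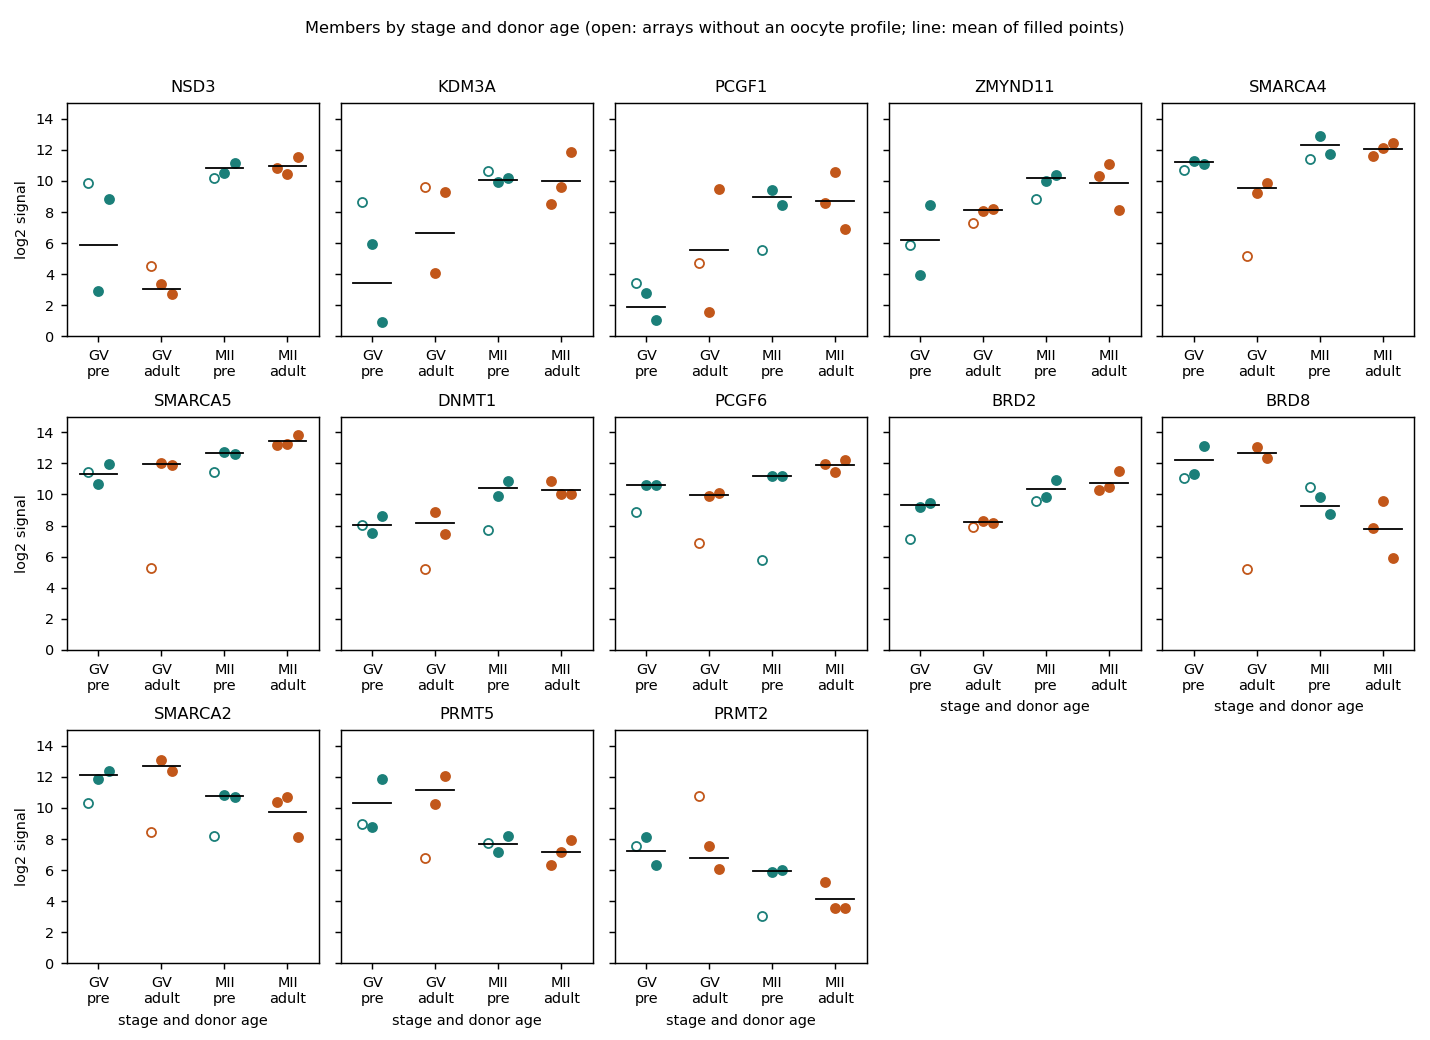
The log2 signal of 13 chromatin regulators is plotted by group: NSD3, KDM3A, PCGF1 and ZMYND11, and the genes whose GV and MII pools did not overlap over the 9 arrays with an oocyte profile. Each point is 1 pool of 50 oocytes, open points are the 3 arrays without an oocyte profile, and lines are means of the filled points. NSD3 is between 2.74 and 9.87 at GV and between 10.20 and 11.54 at MII.

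Stage was first compared over both donor ages at once, as the mean of the adult and the prepubertal change, a comparison added after the values were seen. With limma over the 9 arrays, 2 of 73 genes passed an adjusted p of 0.05, against 0.722% of all probe sets (104 of 14409). NSD3, a SET-domain methyltransferase for lysine 36 of histone H3, rose. BRD8, the bromodomain subunit of the TIP60 acetyltransferase complex, fell. Over all 12 arrays no gene passed in limma (0 of 73, background 0.0%), while 13 had an unadjusted p under 0.05 (17.8% against 10.7% of probe sets). Of these, 11 were higher at MII (15.1% against 4.39%) and 2 lower (2.74% against 6.27%). The corresponding number over the 9 arrays was 16 (21.9% against 14.1%), with 13 higher (17.8% against 8.19%) and 3 lower (4.11% against 5.93%).

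NSD3 read 9.87, 2.92 and 8.81 in the GV prepubertal pools (values are always given in the order of replicates 1, 2 and 3) and 4.54, 3.37 and 2.74 in the GV adult pools. In MII oocytes it read 10.20, 10.49 and 11.15 in prepubertal and 10.82, 10.45 and 11.54 in adult pools. All 6 MII pools were high and within a narrow range. The GV prepubertal pools were split between a low array and a pair, 9.87 and 8.81, nearer to but below the MII values. The array at 9.87 lacked an oocyte profile. The mean change over both ages was 6.42 (SE 1.12, limma adjusted p = 0.0224) over 9 arrays and 5.40 (SE 1.05, limma adjusted p = 0.171) over 12. The GV values of 2.74 to 4.54 lay below the level of the filter on dim probe sets (a mean of 5.57 over 12 arrays), so the size of the change is uncertain, and it was 4.04 (SE 0.81) over 12 arrays with a pseudocount of 32. Leaving out each of the 9 arrays in turn gave 4.95 to 7.89, and the limma call held in 5 of the 9 fits. It was lost without GV prepubertal replicate 2 (adjusted p = 0.0766), GV adult replicate 3 (0.0528), MII prepubertal replicate 2 (0.108) or MII prepubertal replicate 3 (0.148). Median centring of the 9 arrays also ended the call (6.87, SE 1.31, limma adjusted p = 0.0892). A further NSD3 probe set above the filter read 7.98, 8.32 and 2.16 in GV prepubertal, 4.26, 8.00 and 3.97 in GV adult, 9.03, 8.90 and 11.67 in MII prepubertal and 9.64, 9.06 and 8.15 in MII adult pools. This second probe set was also higher at MII (4.00, SE 1.31 over 9 arrays), but its GV values were high in different pools from those of the first, and adult GV replicate 2 was close to the MII pools. With all NSD3 probe sets averaged, the 12-array change was 1.41 (SE 0.99, limma adjusted p = 0.602).

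BRD8 read 11.03, 11.33 and 13.14 in GV prepubertal and 5.20, 13.02 and 12.35 in GV adult pools. At MII it read 10.48, 9.83 and 8.72 in prepubertal and 7.82, 9.60 and 5.93 in adult pools. Apart from the adult array without an oocyte profile, at 5.20, each GV pool was above each MII pool. Its mean change was -3.93 (SE 0.81, limma adjusted p = 0.0448) over 9 arrays and -2.28 (SE 1.14, limma adjusted p = 0.477) over 12. The fall passed in 2 of the 9 fits that each left out 1 array, those without MII adult replicate 2 (limma adjusted p = 0.0228) and without MII adult replicate 3 (0.0168), and values ranged from -4.38 to -3.47. With median centring of the 9 arrays it did not pass (-3.48, SE 1.05, limma adjusted p = 0.188). The other BRD8 probe set was below the filter.

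KAT6B, a MYST-family acetyltransferase for histone H3, passed only in the 9 arrays without MII adult replicate 3 (3.96, SE 0.87, limma adjusted p = 0.0365). In that fit 2.19% of all probe sets passed. KAT6B read 4.53, 5.03 and 8.65 in GV prepubertal, 4.38, 6.34 and 7.91 in GV adult, 8.60, 10.39 and 10.03 in MII prepubertal and 11.71, 11.64 and 5.04 in MII adult pools. MII adult replicate 3, at 5.04, read like the lower GV pools, and MII prepubertal replicate 1, at 8.60, was just below the highest GV pool. MII adult replicate 3 was also low for CHD1, SIRT3 and KAT7, and its highest Spearman correlation with any other array was 0.553, against 0.811 to 0.852 for the other 4 MII arrays with an oocyte profile.

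Over the 9 arrays, the median mean change of the 73 genes was 0.39, beside -0.07 over all probe sets tested, and 44 were higher at MII (all probe sets, 48.2%). Over 12 arrays the medians were 0.32 and -0.20. The zero point of these numbers depends on how arrays were scaled: centring each array on its median moved the median over all probe sets from -0.20 to 0.64 over the 12 arrays and from -0.07 to 0.38 over the 9. The regulators' medians moved with it, to 1.16 and 0.84.

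A letter b, whose meaning the labels do not give, stood in the titles of 4 of the 6 GV arrays and 0 of the 6 MII arrays, so it went partly with stage. With this letter as a covariate over 12 arrays, mean changes moved from -2.28 to -4.02 for BRD8, from 4.41 to 2.98 for PCGF1, from -2.35 to -4.51 for PRMT5, from -3.19 to -1.64 for PRMT2, from -2.43 to -0.72 for EZH1, from 2.84 to 1.5 for ZMYND11 and from 2.47 to 1.54 for SMARCA4. NSD3 moved from 5.40 to 5.00. None passed in limma with or without the letter.

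**Figure D2:**
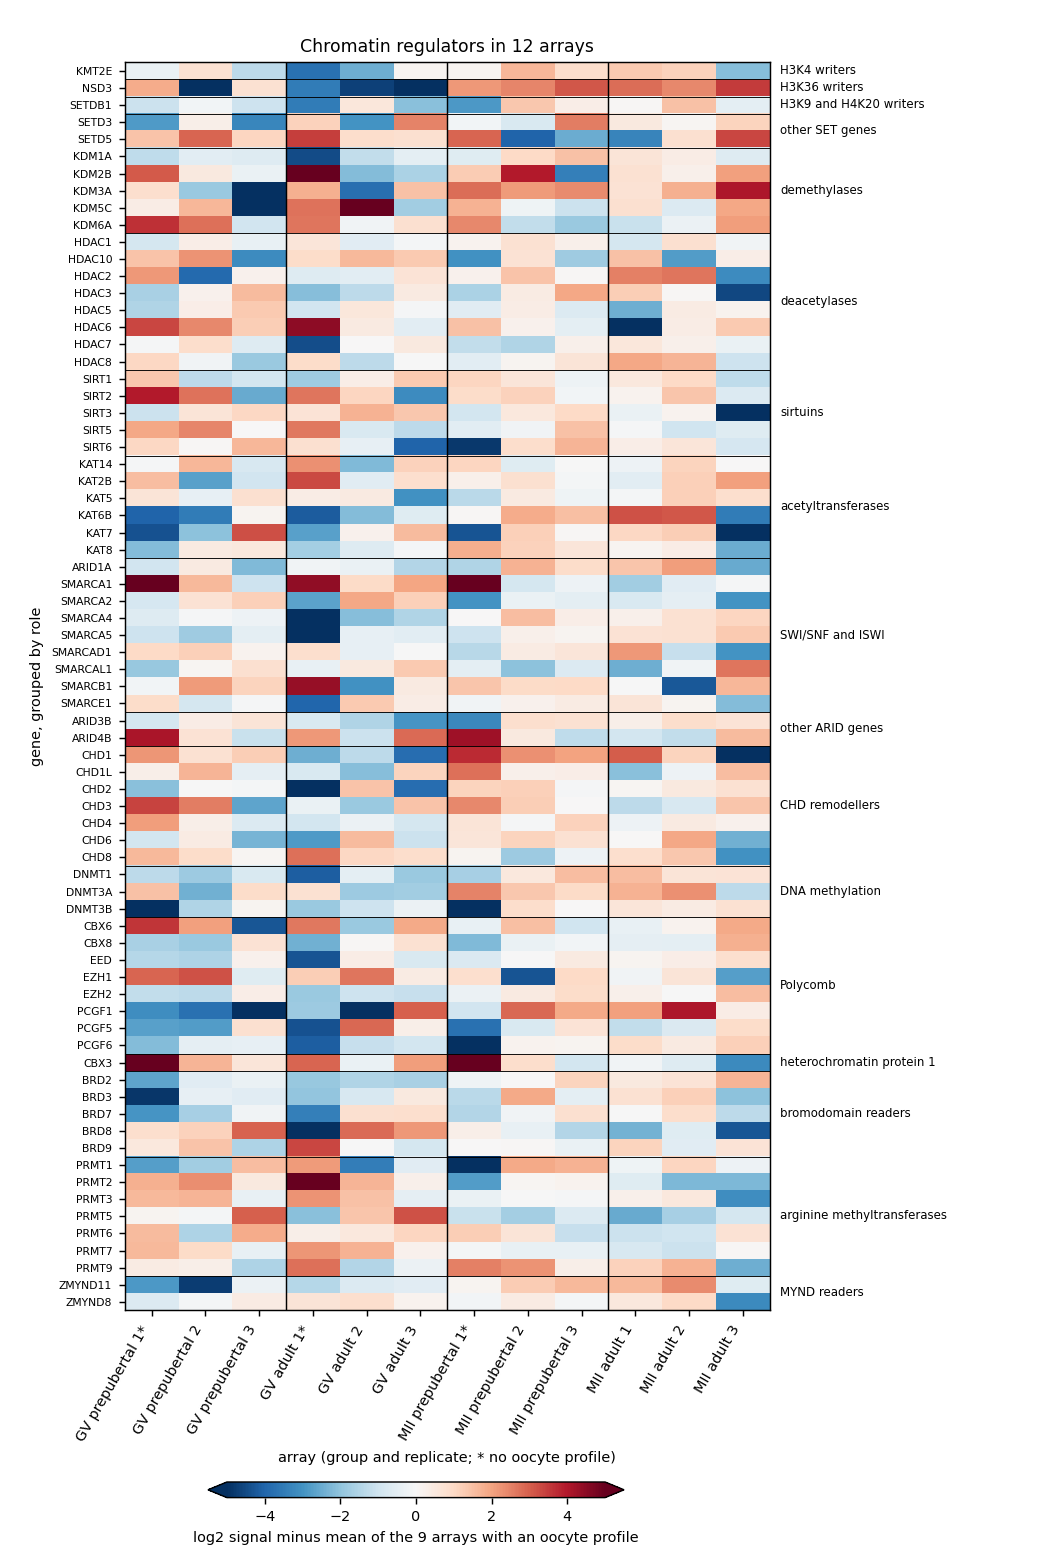
The heat map shows 73 chromatin regulators, grouped by role, on 12 arrays, as log2 signal minus the gene's mean over the 9 arrays with an oocyte profile; arrays marked with an asterisk lack that profile and colours are clipped at -5 and 5. NSD3 and PCGF1 are low in most GV pools, and SMARCA1 and CBX3 are high on the 3 marked arrays.

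Among the erasers of histone methylation, KDM3A, which removes methyl groups from lysine 9 of histone H3, was scattered at GV and varied less at MII. It read 8.67, 5.96 and 0.92 in GV prepubertal, 9.60, 4.05 and 9.27 in GV adult, 10.61, 9.95 and 10.19 in MII prepubertal and 8.54, 9.60 and 11.85 in MII adult pools. The MII pools lay between 8.54 and 11.85. The prepubertal stages did not overlap, but MII adult replicate 1, at 8.54, was below adult GV pools at 9.60 and 9.27. The mean change was 4.98 (SE 1.31, limma adjusted p = 0.101) over 9 arrays and 3.71 (SE 1.24, limma adjusted p = 0.36) over 12. Its second probe set gave 1.33 (SE 1.02). At the first probe set, the GV values of 0.92 and 4.05 lay below the filter level of 5.57, so the size of the change is uncertain. KDM1A, the lysine 4 demethylase that mouse embryos need from the egg, read 9.92, 10.65 and 10.55 in GV prepubertal, 6.73, 9.98 and 10.70 in GV adult, 10.58, 12.19 and 12.67 in MII prepubertal and 11.85, 11.58 and 10.55 in MII adult pools. The MII pools were mostly above the GV pools, with MII adult replicate 3 and MII prepubertal replicate 1 at the GV level. Of 5 tested demethylases, 4 had a positive mean change over 9 arrays and 3 over 12, and none passed.

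Polycomb genes encode complexes that silence developmental genes. PCGF1, which defines the variant Polycomb complex with KDM2B, was low in 5 of the 6 GV pools. It read 3.42, 2.79 and 1.04 in GV prepubertal, 4.73, 1.57 and 9.51 in GV adult, 5.57, 9.43 and 8.44 in MII prepubertal and 8.58, 10.57 and 6.93 in MII adult pools. The exception was GV adult replicate 3, at 9.51, which exceeded all but 1 MII pool. Its mean change was 5.09 (SE 1.46, limma adjusted p = 0.13) over 9 arrays and 4.41 (SE 1.30, limma adjusted p = 0.345) over 12. Leaving out 1 of the 9 arrays moved it from 3.10 (SE 1.17, limma adjusted p = 0.249, without GV adult replicate 2) to 7.07 (SE 1.28, limma adjusted p = 0.0434, without GV adult replicate 3), and the latter was the only one of these fits in which it passed. The low GV values of PCGF1, 1.04 to 4.73, lay below the filter level of 5.57 (the filter acts on the mean of 12 arrays), so the size of the change is uncertain: with a pseudocount of 32 the 12-array change was 2.43 (SE 0.86). PCGF6, of the variant complex that represses germ-line genes, was the most reproducible member over the 9 arrays, with a within-group SD of 0.25. Over 12 arrays its within-group SD was 1.88. It read 8.84, 10.58 and 10.60 in GV prepubertal, 6.90, 9.87 and 10.11 in GV adult, 5.76, 11.21 and 11.17 in MII prepubertal and 11.93, 11.47 and 12.21 in MII adult pools. The 3 arrays without an oocyte profile had the 3 lowest values, and among the other 9 all MII pools were above all GV pools.

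EZH2, the lysine 27 methyltransferase of Polycomb repressive complex 2, read 10.43, 10.34 and 11.99 in GV prepubertal, 9.77, 10.60 and 10.50 in GV adult, 11.34, 12.08 and 12.56 in MII prepubertal and 11.89, 11.64 and 13.18 in MII adult pools. All adult MII pools were above the adult GV pools, while GV prepubertal replicate 3 lay among the MII values. Its paralogue EZH1 went the other way without passing: 8.49, 8.74 and 4.98 in GV prepubertal, 6.79, 8.23 and 5.99 in GV adult, 6.40, 1.26 and 6.56 in MII prepubertal and 5.39, 6.20 and 2.80 in MII adult pools. The stages of EZH1 overlapped, and its mean change was -2.63 (SE 1.42) over 9 arrays and -2.43 (SE 1.21) over 12. In all, 6 of 8 Polycomb genes had a positive mean change (median 0.85 over 9 arrays and 0.78 over 12), a count that was 6 or 7 under every scaling tried, and none passed. Of all probe sets, 48.2% were higher at MII over 9 arrays and 44.3% over 12. The Polycomb count and medians include EED. The EED entry, for the scaffold of the same complex, is doubtful, because the annotation gives that symbol to 23 probe sets, of which 15 were above the filter, 5 higher at MII and 10 lower (from -1.51 to 1.83).

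DNA methyltransferases had positive mean changes in all 3 measured genes under each scaling tried (median 2.24 over 9 arrays and 1.73 over 12), and none passed. DNMT1, which copies methylation after replication, read 8.03, 7.53 and 8.58 in GV prepubertal, 5.21, 8.85 and 7.48 in GV adult, 7.70, 9.89 and 10.88 in MII prepubertal and 10.88, 10.00 and 10.05 in MII adult pools. Only the MII array without an oocyte profile fell among the GV values. The mean change of DNMT1 was 2.24 (SE 0.75, limma adjusted p = 0.191) over 9 arrays and 2.28 (SE 0.86, limma adjusted p = 0.398) over 12. DNMT3A, the de novo enzyme of growing oocytes, read 9.33, 5.47 and 8.78 in GV prepubertal, 8.63, 6.05 and 6.14 in GV adult, 10.34, 9.24 and 8.82 in MII prepubertal and 9.62, 10.18 and 6.58 in MII adult pools, so its stages overlapped. DNMT3B, the other de novo enzyme, read 5.94, 9.86 and 11.51 in GV prepubertal, 9.51, 10.33 and 11.08 in GV adult, 6.23, 12.23 and 11.37 in MII prepubertal and 11.97, 11.76 and 12.10 in MII adult pools. Its lowest values were the 3 arrays without an oocyte profile.

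The remodelling motors had differences of both signs. SMARCA4 (BRG1), an ATPase of SWI/SNF complexes and a maternal factor of genome activation in the mouse, read 10.73, 11.28 and 11.11 in GV prepubertal, 5.15, 9.22 and 9.85 in GV adult, 11.39, 12.89 and 11.70 in MII prepubertal and 11.60, 12.12 and 12.44 in MII adult pools. Every MII pool was above every GV pool, by a margin as small as that between 11.28 and 11.39. SMARCA4 had 5 probe sets, and this separation was read only from the probe set with the highest mean. SMARCA2 (BRM), the alternative ATPase of the same complexes, showed the opposite order among the 9 arrays: 10.32, 11.87 and 12.37 in GV prepubertal, 8.47, 13.08 and 12.35 in GV adult, 8.17, 10.84 and 10.68 in MII prepubertal and 10.41, 10.72 and 8.16 in MII adult pools. The GV arrays without an oocyte profile, at 10.32 and 8.47, had the lowest GV values of SMARCA2. The mean changes over 9 arrays were 1.81 (SE 0.53, limma adjusted p = 0.141) for SMARCA4 and -2.15 (SE 0.63, limma adjusted p = 0.138) for SMARCA2. Over 12 arrays they were 2.47 (SE 0.85, limma adjusted p = 0.369) and -1.58 (SE 0.92, limma adjusted p = 0.527). The difference between the changes of these genes was not tested.

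SMARCA5, the ISWI motor SNF2H, read 11.44, 10.68 and 11.98 in GV prepubertal, 5.24, 12.05 and 11.92 in GV adult, 11.42, 12.72 and 12.60 in MII prepubertal and 13.20, 13.22 and 13.79 in MII adult pools. With the 3 doubtful arrays set aside, the MII pools were all above the GV pools. The mean change was 2.27 (SE 1.03, limma adjusted p = 0.441) over 12 arrays and 1.37 (SE 0.43, limma adjusted p = 0.168) over 9. A second SMARCA5 probe set gave 1.60 (SE 0.57). ARID1A, a subunit of the BAF form of SWI/SNF, read 8.43, 9.83 and 7.19 in GV prepubertal, 9.23, 9.07 and 7.93 in GV adult, 7.88, 11.13 and 10.32 in MII prepubertal and 10.77, 11.48 and 6.86 in MII adult pools, with overlap at MII prepubertal replicate 1 and MII adult replicate 3. Among 9 SWI/SNF and ISWI genes, 3 had a positive and 6 a negative mean change over the 9 arrays, but 6 were positive after median centring. CHD4, the motor of the NuRD deacetylase complex, stayed within 7.56 to 10.57, and its adult MII pools, from 8.24, were just above its adult GV pools, up to 8.19. Of 7 CHD genes, 5 were higher at MII over 9 arrays and 6 over 12, and none passed.

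Arginine methyltransferases included a pair of genes that were lower at MII without overlap over the 9 arrays. PRMT5, which makes symmetric dimethylarginine and is needed in germ cells, read 8.99, 8.74 and 11.84 in GV prepubertal, 6.77, 10.25 and 12.02 in GV adult, 7.72, 7.14 and 8.18 in MII prepubertal and 6.31, 7.19 and 7.95 in MII adult pools. Of the GV pools, only the adult array without an oocyte profile came within the MII range. Its mean change was -3.31 (SE 0.90, limma adjusted p = 0.116) over 9 arrays and -2.35 (SE 0.95, limma adjusted p = 0.418) over 12. PRMT2, a further type of arginine methyltransferase with a low basal activity, read 7.58, 8.16 and 6.32 in GV prepubertal, 10.79, 7.53 and 6.07 in GV adult, 3.03, 5.91 and 6.01 in MII prepubertal and 5.21, 3.58 and 3.56 in MII adult pools. The stages did not overlap on the 12 arrays, but GV adult replicate 3, at 6.07, and MII prepubertal replicate 3, at 6.01, were close. The PRMT2 values of 3.03, 5.21, 3.58 and 3.56 at MII lay below the filter level of 5.57, so the size of its fall is uncertain. PRMT1, the main asymmetric enzyme, had widely scattered values between 2.01 and 9.51. Of 7 PRMT genes, 5 were lower at MII over 9 and over 12 arrays (median -1.0 and -1.49), and 4 were lower over 12 arrays after quantile normalization or median centring.

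Readers of acetylated and methylated histones were represented by the BRD and ZMYND genes. BRD2, a BET protein that binds acetylated histones, read 7.14, 9.21 and 9.44 in GV prepubertal, 7.89, 8.29 and 8.16 in GV adult, 9.56, 9.82 and 10.90 in MII prepubertal and 10.29, 10.45 and 11.49 in MII adult pools. All MII pools were above all GV pools, and its within-group SD was 0.54 over the 9 arrays. ZMYND11, which reads methylated lysine 36 on the histone variant H3.3, read 5.86, 3.97 and 8.43 in GV prepubertal, 7.30, 8.07 and 8.18 in GV adult, 8.86, 10.02 and 10.36 in MII prepubertal and 10.34, 11.10 and 8.14 in MII adult pools. MII adult replicate 3 was the sole MII pool among the GV values. The ZMYND11 mean change was 2.86 over 9 arrays and 2.84 (SE 0.91, limma adjusted p = 0.354) over 12.

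Deacetylases and sirtuins showed no common direction, which also turned with the scaling. Of 8 tested HDAC genes, 3 were higher at MII over 9 arrays, 5 over 12 and 6 after median centring of 12. HDAC1, of the Sin3 and NuRD complexes, was steady, between 8.31 and 9.99 on the 12 arrays, while its partner HDAC2 read 2.70 to 9.25 and HDAC3, of the NCoR complex, 3.24 to 9.72. SIRT1, a nuclear NAD-dependent deacetylase, stayed between 7.28 and 10.41. SETDB1, the lysine 9 methyltransferase that silences retroviral elements, ranged from 5.95 to 10.91, and KAT8, the acetyltransferase for lysine 16 of histone H4, from 6.70 to 10.99. All these genes overlapped between stages.

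In vitro maturation of adult oocytes was compared next, MII against GV pools of adult donors. No regulator passed in limma over 12 arrays (0 of 73, background 0.0%) or over 9 (0 of 73, background 0.118%). Unadjusted p was under 0.05 for 8 genes over 12 arrays (11% against 7.93% of probe sets). BRD2, DNMT1, NSD3, PCGF6, SMARCA4 and SMARCA5 were higher (8.22% against 4.08%) and PRMT2 and SIRT3 lower (2.74% against 3.85%). Over 9 arrays there were 11 (15.1% against 11.4%), 7 higher (9.59% against 6.94%) and 4 lower (5.48% against 4.48%). Over 12 arrays the adult stages did not overlap for 10 genes higher at MII (13.7% against 8.11%), among them CHD4, DNMT3B and EZH2, and for 4 lower (5.48% against 7.19%). NSD3 was the largest difference, 7.39 (SE 1.49, limma adjusted p = 0.392) over 12 and 7.88 (SE 1.51, limma adjusted p = 0.0545) over 9 arrays. The next in size over 9 arrays were BRD8 at -4.90 (SE 1.10, limma adjusted p = 0.106) and PRMT5 at -3.98 (SE 1.22, limma adjusted p = 0.201). Over 12 arrays they gave -2.41 (SE 1.61) and -2.53 (SE 1.35). SMARCA4 read 3.98 (SE 1.20) over 12 and 2.52 (SE 0.72) over 9 arrays, and DNMT1 3.13 (SE 1.21) over 12. SMARCA2, at -2.95 (SE 0.85), and ARID3B, a DNA-binding ARID protein, at 2.84 (SE 1.02), belonged to the 9-array set. Over 12 arrays they gave -1.53 (SE 1.31) and 2.36 (SE 1.24). SIRT3, a mitochondrial deacetylase, gave -3.37 (SE 1.43) over 12 arrays, with MII adult replicate 3 at 2.87, the other adult MII pools at 8.67 and 9.20 and the adult GV pools at 9.70, 10.77 and 10.37. Without that MII pool the difference over the remaining oocyte arrays was -1.63 (SE 0.85), against -3.66 (SE 1.54) with it. SMARCA1, an ISWI motor, gave -3.26 (SE 1.88) over 12 arrays, with its highest adult GV value, 11.04, on the array without an oocyte profile.

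Maturation of prepubertal oocytes addressed the same step in younger donors. No regulator passed over 12 or over 9 arrays in limma (0 of 73, background 0.0% in both). Unadjusted p was under 0.05 for KAT6B, KDM3A, NSD3, PCGF1 and ZMYND11 over 12 arrays, all higher at MII (6.85% against 3.41% of probe sets, and 1.22% of probe sets higher). Over 9 arrays 5 genes were higher (6.85% against 3.57%) and 2 lower (2.74% against 3.42%), together 9.59% against 6.99%. The 12-array stages did not overlap for 8 genes higher at MII (11% against 3.66%), BRD2, CHD6, KAT8, KDM3A, NSD3, PCGF1, SMARCA4 and ZMYND11, and for 3 lower, BRD8, PRMT2 and PRMT5 (4.11% against 6.05%). Replicate numbers were taken to pair the prepubertal GV and MII arrays, on correlations of 0.609, 0.149 and 0.306. The first of these was between both prepubertal arrays without an oocyte profile, so the pairing is uncertain. With that number as a block over these 6 arrays, 8 genes were higher and 3 lower at an unadjusted p under 0.05. The share of all probe sets under this threshold was 10.1%. Without the block 4 genes were higher and 1 lower, and the share of all probe sets was 3.77%. No gene passed in limma with the block (lowest adjusted p = 0.306).

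PCGF1 differed by 5.39 (SE 1.84, limma adjusted p = 0.999) over 12 and 7.02 (SE 2.16, limma adjusted p = 0.63) over 9 arrays. KDM3A differed by 5.07 (SE 1.75) and 6.63 (SE 1.93), and by 2.93 without GV prepubertal replicate 3, where it read 0.92. ZMYND11 gave 3.66 (SE 1.29) and 3.99 (SE 1.5), with its lowest value of 3.97 in GV prepubertal replicate 2. NSD3 gave 3.42 (SE 1.49) over 12 arrays, 4.96 (SE 1.65) over 9 and 1.28 without GV prepubertal replicate 2. Lower values at MII were led by SETD5, a SET-domain protein, at -3.00 (SE 1.91) over 12 and -5.23 (SE 2.10) over 9 arrays. It read 6.42, 7.93 and 6.06 in GV prepubertal pools against 7.90, 1.01 and 2.51 in MII prepubertal pools, where the array without an oocyte profile kept the GV level. The values of 1.01 and 2.51 lay below the filter level of 5.57, so the size of the SETD5 change is uncertain. BRD8 gave -2.96 (SE 1.20) and PRMT5 -2.63 (SE 1.34) over 9 arrays. Over 12 arrays they gave -2.15 (SE 1.61) and -2.18 (SE 1.35).

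The adult and prepubertal maturation comparisons share no array, so their values can be set side by side. Over the 9 arrays, 55 of 73 regulators had the same sign at both ages (75.3%, against 62.5% of all probe sets tested), and the changes correlated at 0.65 (Pearson, across genes, which are not independent replicates; 0.33 over all probe sets). Over 12 arrays 57 had the same sign (78.1% against 65.7%). NSD3 and BRD8 reached an unadjusted p under 0.05 at each age, with matching sign, over 9 arrays (2 genes, 2.74% against 1.95%). SMARCA2 and PRMT5 were lower at MII in both ages, and DNMT1, SMARCA4 and KDM3A higher in both.

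**Figure D3:**
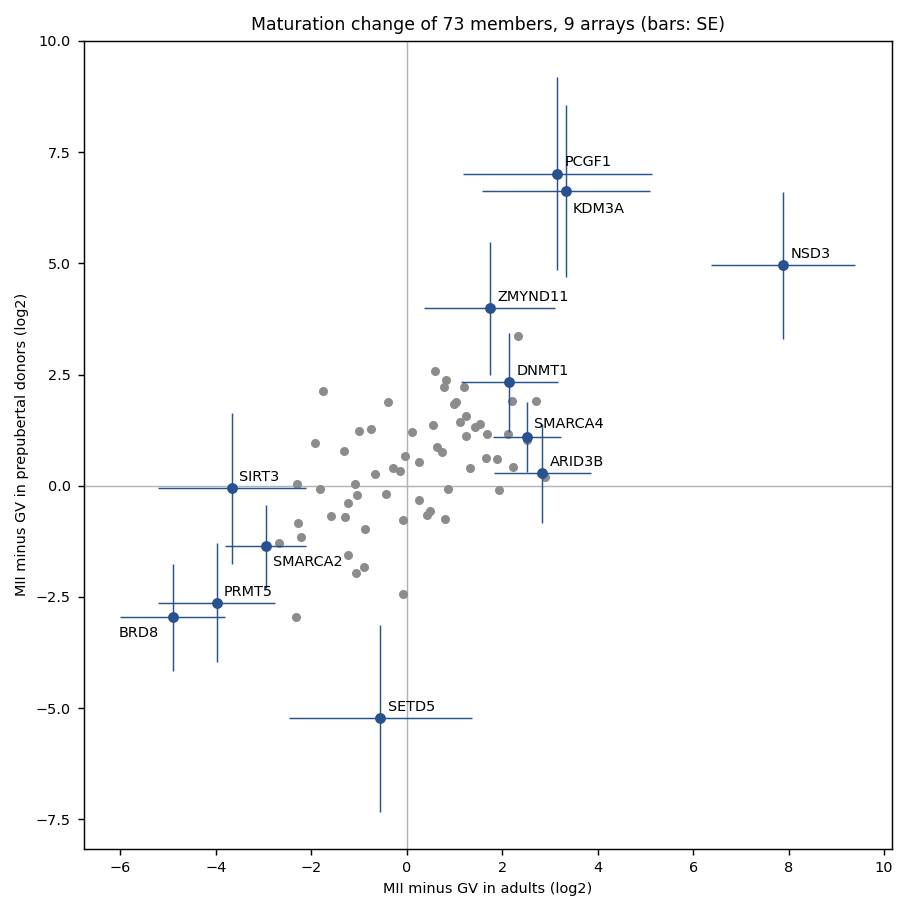
Each point is 1 of 73 regulators, placed by its MII minus GV difference (log2) in adults on the x axis and in prepubertal donors on the y axis, over 9 arrays, with SE bars on 12 named genes. NSD3 is at 7.88 and 4.96, BRD8 at -4.90 and -2.96, and SETD5 at -0.55 and -5.23.

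The difference between the ages in their maturation change was tested as an interaction. No regulator passed in limma over 12 or 9 arrays (background 0.0%), and none had an unadjusted p under 0.05 (0 of 73, against 1.21% and 3.06% of probe sets). Point values over 12 arrays were negative for NSD3 (-3.97, SE 2.11), PCGF6 (-3.54, SE 1.95), SMARCA4 (-3.03, SE 1.69) and ARID3B (-2.95, SE 1.75). In the other direction stood SIRT3 (3.38, SE 2.02), KDM5C (3.72, SE 2.90), KDM3A (2.71, SE 2.48) and SETD3 (2.13, SE 2.02). When all probe sets of a gene were averaged, NSD3 (0.18), SMARCA4 (0.47) and SETD3 (-0.55) turned sign. With 1 array left out, values ranged from -6.11 to -2.64 for NSD3, from -4.46 to -1.73 for PCGF6, from 1.36 to 4.52 for SIRT3, from 0.97 to 5.85 for KDM5C and from 0.58 to 4.51 for KDM3A. Over 9 arrays the smallest p belonged to BRD7 (2.22, SE 1.16), a subunit of the PBAF form of SWI/SNF, followed by PCGF5, SIRT3 and SMARCE1 among the positive values. Negative values over 9 arrays included ARID3B (-2.56, SE 1.51) and SETD5 (-4.68, SE 2.84). Over 12 arrays BRD7 gave 0.89 (SE 1.82) and SETD5 -1.57 (SE 2.70). The interval of each of these values was wide beside its size, with SEs of 1.16 to 2.9.

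Donor age at the GV stage was the third question. No regulator passed in limma (0 of 73 over 12 and over 9 arrays, background 0.0%). Unadjusted p was under 0.05 for CHD1, NSD3 and SMARCA4 over 12 arrays, all higher in prepubertal pools (4.11% against 2.51% of probe sets, and 1.98% of probe sets higher), and over 9 arrays for ARID3B (1.37% against 4.64%). The groups did not overlap for CHD1 and SMARCA4 over 12 arrays (2.74% against 3.8% of probe sets higher without overlap), and for 0 genes in the lower direction (1.88%). CHD1, a remodeller of transcribed genes, read 10.25, 8.80 and 9.27 in the younger and 5.58, 6.73 and 4.23 in the adult GV pools, a difference of 3.93 (SE 1.63, limma adjusted p = 1.0) over 12 and 3.56 (SE 2.09) over 9 arrays. SMARCA4 differed by 2.97 (SE 1.20) over 12 arrays and 1.66 (SE 0.79) over 9, with the adult array without an oocyte profile at 5.15, and the 12-array difference turned to -0.34 when all SMARCA4 probe sets were averaged. ARID3B read 8.20, 9.45 and 9.70 in the younger and 8.29, 7.58 and 6.12 in the adult GV pools (1.79, SE 1.24 over 12; 2.73, SE 1.11 over 9), but its second probe set gave -2.36 over 12 arrays.

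KDM5C, a lysine 4 demethylase, had the largest difference in the other direction, -4.26 (SE 2.05) over 12 and -5.22 (SE 2.62) over 9 arrays. It read 8.15, 9.41 and 0.54 in the younger and 10.48, 14.36 and 6.03 in the adult GV pools, with a very low and a very high array, and the groups overlapped. Over the 9 arrays it was the most scattered gene, with a within-group SD of 3.95. PCGF1 gave -2.86 (SE 1.84), KDM3A -2.46 (SE 1.75) and SETD3, a SET-domain enzyme that methylates actin, -2.15 (SE 1.43) over 12 arrays. Single pools moved these values: PCGF1 read -0.74 and SETD3 -1.02 without GV adult replicate 3, and KDM3A -0.33 and KDM5C -1.51 without GV prepubertal replicate 3. SIRT6, a nuclear deacetylase, gave 3.06 (SE 1.45), BRD7 -1.75 (SE 0.86) and PCGF5, of a further variant Polycomb complex, -2.57 (SE 1.35) over 9. Over 12 arrays they gave 2.11 (SE 1.62), -1.01 (SE 1.29) and -1.16 (SE 1.63). The medians of the 73 genes were 0.18 over 12 and 0.01 over 9 arrays, beside 0.25 and 0.23 over all probe sets.

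Donor age was last compared at the MII stage. No regulator passed in limma over 12 or 9 arrays (background 0.0%), and none reached an unadjusted p under 0.05 (0 of 73, against 2.66% and 2.56% of probe sets). KAT8 was higher in all prepubertal than in all adult pools over 12 arrays (1.37% against 4.78%), at 10.99, 10.33 and 9.78 against 9.30, 9.53 and 6.70. PCGF6 and SMARCA5 were lower without overlap (2.74% against 5.18%). CHD1 read 11.75, 10.32 and 10.05 in prepubertal against 11.07, 9.13 and 2.62 in adult MII pools (3.10, SE 1.63 over 12 arrays). The difference was 0.61 without MII adult replicate 3, which read 2.62. CBX3, a heterochromatin protein 1 paralogue, gave 3.22 (SE 1.76) over 12 arrays and read 12.05 on the prepubertal array without an oocyte profile, against 7.26 and 5.48 on the others of that group. SIRT3 gave 2.30 (SE 1.43) and KAT8 1.86 (SE 1.18), while PCGF6 gave -2.49 (SE 1.38), DNMT3B -2.0 (SE 1.5), ARID3B -1.17 (SE 1.24) and CBX8, a Polycomb chromodomain protein, -1.18 (SE 1.35). Without MII adult replicate 3, SIRT3 read 0.28, KAT8 0.95 and CBX8 -0.43. Without MII prepubertal replicate 1, which lacks an oocyte profile, PCGF6 read -0.68, DNMT3B -0.14, CBX3 1.33 and ARID3B 0.17. Over 9 arrays the values were 2.87 (SE 1.54) for SIRT3, 1.10 (SE 0.74) for KDM1A, 2.25 (SE 1.60) for HDAC3, -3.53 (SE 1.91) for SETD5, -0.74 (SE 0.58) for SMARCA5, -1.39 (SE 1.20) for SMARCAL1, a helicase of stalled forks, and -1.78 (SE 1.65) for KDM6A, the lysine 27 demethylase. Over 12 arrays KDM1A gave 0.49 (SE 1.16), HDAC3 1.33 (SE 1.59), SETD5 -1.48 (SE 1.91) and SMARCA5 -1.15 (SE 1.45). There SMARCAL1 gave -1.09 (SE 1.27) and KDM6A -0.46 (SE 1.66).

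**Figure D4:**
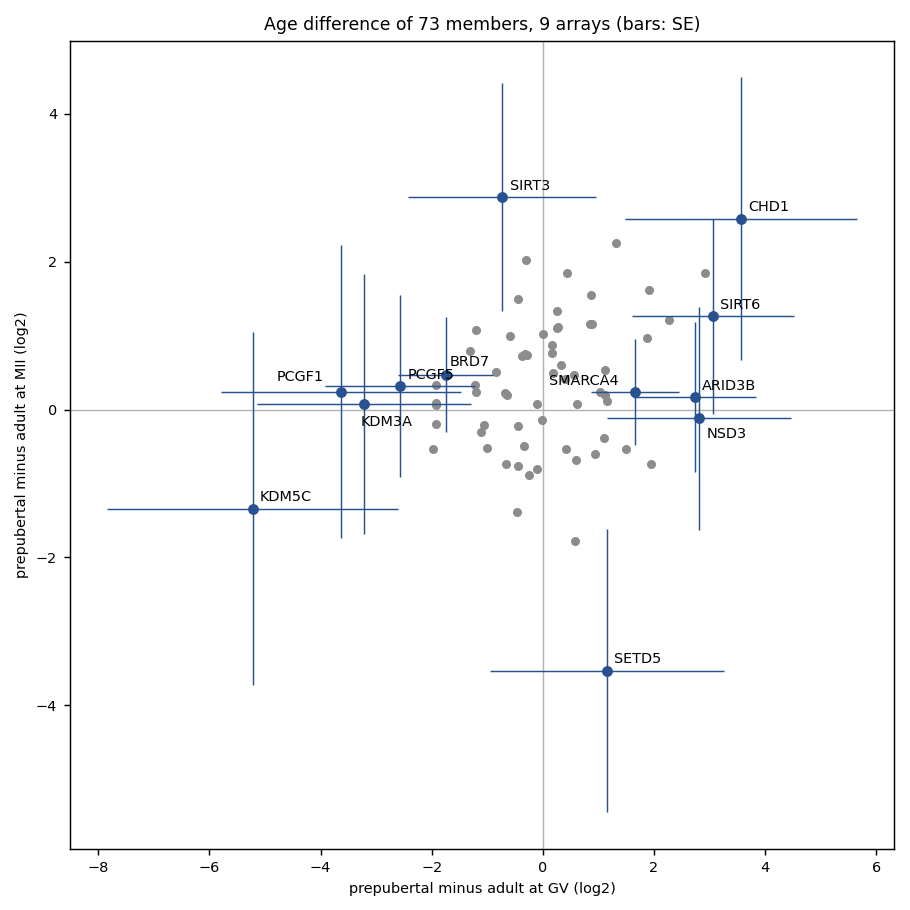
The prepubertal minus adult difference (log2) at GV is on the x axis and at MII on the y axis for 73 regulators over 9 arrays, with SE bars on 12 named genes. The stages share no array; 42 of 73 genes (57.5%) have the same sign at both, against 50.9% of all probe sets, and CHD1 is at 3.56 and 2.58.

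The 3 arrays without an oocyte profile bore on single regulators. SMARCA1, the ISWI motor SNF2L, read 13.31, 8.20 and 5.54 in GV prepubertal, 11.04, 7.57 and 8.58 in GV adult, 12.66, 5.73 and 6.34 in MII prepubertal and 4.86, 6.01 and 6.52 in MII adult pools, and CBX3 had a like order. The 3 doubtful arrays held the 3 highest values of both genes. SMARCA1, CBX3 and ARID4B were above the range of the 9 arrays on both prepubertal replicate 1 arrays (3 of 73, 4.11%, against 13.7% of all probe sets). DNMT3B and PCGF6 were below it (2 of 73, 2.74%, against 9.27%). GV adult replicate 1 had 22 regulators below the range of the 9 (30.1% against 19.0%) and 17 above (23.3% against 32.7%). The medians of the cumulus and granulosa markers and of the theca and stroma markers were high on both prepubertal replicate 1 arrays. The part of RNA from such cells in the regulators' values was not tested.

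Several probe sets for 1 gene gave a check within the arrays. For 26 genes other than EED, 38 further probe sets were above the filter. In the mean maturation change over 9 arrays, 24 of the 38 (63.2%) had the sign of the gene's reported probe set. In the GV age comparison over 12 arrays it was 15 (39.5%). ARID1A had the highest such value, 5.12 (SE 1.10) against 1.71 (SE 1.0) for its reported probe set, and the second KAT6B probe set gave 3.93 (SE 1.07) against 2.85 (SE 1.33). Probe sets disagreed for CHD2, a remodeller, with -3.33 (SE 1.06) against 1.14 (SE 0.78), and for ZMYND8, a reader of acetylated histones, with 3.17 (SE 1.02) against -0.52 (SE 0.87). These probe sets, apart from those of the genes named above, were singled out after their values were seen.

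**Figure D5:**
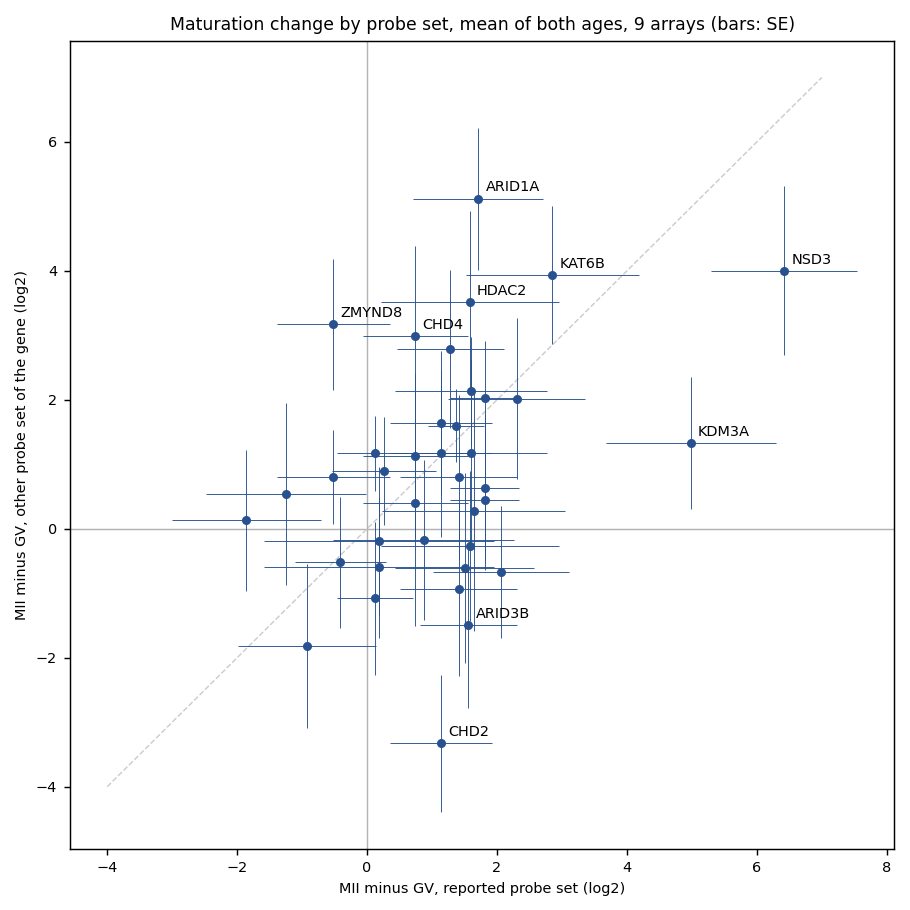
For 26 regulators with several probe sets above the filter, the mean maturation change (log2, 9 arrays) of the reported probe set is on the x axis and that of each of 38 other probe sets on the y axis, with SE bars and a dashed line of equal values. NSD3 is at 6.42 and 4.00, KDM3A at 4.98 and 1.33, and CHD2 has a probe set at -3.33.

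The spread between pools set what could be seen. Over the 9 arrays, the median within-group SD of the regulators was 1.46, beside 1.5 for all probe sets, and over 12 arrays 1.68 beside 1.86. After PCGF6, the tightest genes over 9 arrays were SMARCA5 (0.46), ARID3B (0.50), KDM1A (0.51), SMARCA4 (0.51) and BRD2 (0.54). CHD1 (2.91), PCGF1 (2.83) and NSD3 (1.92) were among those with a wide spread, so that differences of several log2 units in these genes came with SEs above 1. Over 12 arrays PCGF6 (1.88) and SMARCA5 (2.01) were not tight, with SDs above the regulators' median of 1.68.

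Chromatin genes outside the named families, mostly subunits of the regulators' complexes, were followed as a list of 90 genes. Of these, 60 were measured and 56 tested. None passed in limma over 12 arrays in any of the comparisons. In the mean maturation change over 9 arrays 1 of 56 passed (0.722% of all probe sets did), ING4, a reader of methylated lysine 4 in the KAT7 acetyltransferase complex (3.95, SE 0.84, limma adjusted p = 0.0494). ING4 passed in 2 of the 9 fits that each left out 1 array (limma adjusted p from 0.0334 to 0.258), and it did not pass after quantile normalization (0.0677) or median centring (0.129) of the 9. Of the list, 7 were higher and 1 lower at an unadjusted p under 0.05 (14.3% against 14.1% of all probe sets). SUV39H1, a lysine 9 methyltransferase, gave -2.11 (SE 0.84) and TRIM28, the corepressor that recruits SETDB1, 2.39 (SE 0.84) in the same comparison, without passing.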

How the data were processed

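Oocyte RNA was amplified and labelled with biotin for Affymetrix bovine arrays, per the labels' protocols. The authors deposited 1 table of log2 signals for 12 arrays, made with MAS5 per the submitters' processing notes (version not given in the sources used here). Detection calls and scanner files were not used here. Probe sets were named from the platform annotation: 13292 had 1 symbol, 86 several and 10638 none. Probe sets with a mean above the 40th percentile (5.57, 14409 of 24016) entered a fit of group means in limma 3.58.1 (R 4.3.3; trend, Benjamini-Hochberg over all of them, threshold 0.05). The number of arrays limits the precision. The same fit was made over 9 arrays, and alternatives changed scaling, filter, probe sets, arrays, pseudocount (32), title letter and block. Within prepubertal donors, deviations of same-numbered GV and MII arrays correlated at 0.609, 0.149 and 0.306, and the numbers were taken to pair them. The value of 0.609 came from the replicate 1 arrays, which lack an oocyte profile. Same-numbered GV arrays of adult and prepubertal donors correlated at 0.383, -0.0215 and 0.381, so the pairing is uncertain. In adults the values between stages were -0.105, 0.0152 and -0.0849, and the numbers were not taken to pair. Members, lists and the 9 arrays were chosen with earlier results of these data known. Named genes were NSD3, KDM3A, PCGF1 and ZMYND11, and members known from oocytes and embryos. Members past the threshold, or the 4 in each direction with the smallest p in either fit, were also named. So were members with an unadjusted limma p under 0.05 and the same sign in both maturation comparisons over 9 arrays. The code was tested on simulated data.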

Additional observations from a re-analysis of the deposited data

How the results depend on the processing

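Medians over the regulators depended on scaling. In adult maturation the median was 0.16, and 0.86 after quantile normalization, 0.94 after median centring, 0.72 under a stricter filter and 0.0 to 0.81 with 1 array left out, the highest without MII adult replicate 3. In prepubertal maturation 0.15 became 0.72 and 1.06 with these scalings, and 0.79 (quantile) and 1.33 (centring) over 9 arrays. The interaction median, 0.12, became 0.77 and 1.01 over 9 arrays, and the mean of both ages, 0.32, became 1.16 with centring. The count of called regulators, 0 over 12 arrays, was 1 (NSD3, limma adjusted p = 0.0309) with a replicate block over the 6 adult arrays. In that fit 0.0486% of all probe sets passed, and the adult numbers were not taken to pair. For the mean of both ages it was 2 over 9 arrays (0.722% of all probe sets passed) and 3 over 8 (2.19%). Over 9 arrays it was 2 after quantile normalization (1.08% of all probe sets) and 0 after centring, where no probe set passed. With 1 array left out it was 0 in each fit from the 12 arrays and 0 to 3 in those from the 9. The block changed no other call.

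Of 1887 values of 73 named results under the alternatives, 1851 kept their direction and 36 reversed; 15 passed the threshold where the 12-array value had not. The cause was not tested. When all probe sets of a gene were averaged, these reversed: ARID3B (-0.29) and SMARCA4 (-0.34) for age at GV, KDM6A for age at MII (0.65), ARID3B in adult maturation (-0.40), and SETD3 (-0.55), NSD3 (0.18) and SMARCA4 (0.47) in the interaction. For age at MII, CBX8 read 0.23 over 8 arrays, DNMT3B 0.23 over 9 with centring, and ARID3B 0.17 over 9 arrays, 0.20 over 8 and 0.54 over 9 with centring. SMARCE1 in the interaction read 2.09 over 9 arrays, 1.25 over 8, 2.10 with quantile normalization and 2.79 with centring. With 1 array left out (MII adult replicate 3 for SMARCAL1, HDAC3 and SETD5, GV adult replicate 2 for PCGF5 at GV), ranges that crossed 0 were -3.14 to 0.47 for PCGF5 at GV; for age at MII, -2.33 to 0.24 for SMARCAL1, -0.40 to 2.48 for HDAC3, -1.85 to 0.17 for ARID3B, -1.78 to 0.47 for KDM6A and -3.53 to 0.05 for SETD5; and in the interaction -1.39 to 2.22 for PCGF5 and -1.17 to 1.46 for SMARCE1. Groups of 2 or 3 pools limit what can be detected.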
